A study of Mus musculus with 11 samples.

Results

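Gata1, Gata2 and 8 genes whose products work with them in the red-cell and megakaryocyte lineages (Klf1, Tal1, Gfi1b, Nfe2, Zfpm1, Fli1, Lmo2 and Runx1) were examined in RNA-seq libraries of mouse acute myeloid leukaemia (AML). The members were chosen by name: the row of the count table whose Ensembl identifier maps to each symbol. All 10 were found among 55487 genes, and all 10 passed the filter on low counts that left 14521 genes for testing. The rule that finds them uses no measured value, although they were chosen with earlier results of these data known.

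The 11 libraries came from AML of mice that carried 2 lesions in every case, Flt3-ITD and NHD13. Flt3-ITD is an internal tandem duplication that activates the cytokine receptor Flt3, and NHD13 is a transgene for the NUP98-HOXD13 fusion. Of these libraries 6 were heterozygous for Ifnar1 (Ifnar1 +/-) and 5 had no intact copy (Ifnar1 -/-). Ifnar1 encodes a subunit of the type I interferon receptor. The source is labelled AML, while the series' design text speaks of HPCs without further definition. The labels used here give no age, no sorted population and no promoter for the transgene, they list no library from healthy cells, and they do not say whether each sample was a mouse of its own. The p-values therefore rest on the variation among these samples, which may be partly technical.

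GATA factors are zinc-finger proteins that bind DNA at short sites built around the letters GATA. In blood formation, Gata2 acts in stem and progenitor cells and in mast cells, and Gata1 takes over many of its sites as cells become erythroid or megakaryocytic, and acts also in eosinophils, mast cells and basophils. GATA1 binds the cofactor FOG1, the product of Zfpm1, and sits with TAL1, LMO2 and LDB1 in a complex on DNA. The erythroid factor Klf1 and the megakaryocyte factors Fli1, Runx1 and Nfe2 meet it at lineage genes, and Gfi1b is a transcriptional repressor that acts in the same lineages. Ebf1 helps to start the B-lineage programme, a separate branch of blood formation.

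The upstream sequences of 4 members are shown because Gata1, Klf1, Tal1 and Gfi1b are genes through which these factors are known to act on one another, and because 3 of them hold a GATA-type match. RefSeq promoter entries (GRCm38.p6) were found for 7 of the 10 members, in 10 windows. Nfe2, Fli1 and Lmo2 were not matched. The 250 bases before the start site follow, 5′ to 3′ on the gene's strand, with GATA-type matches in capitals. A match is the letters GATA with A or T before them and A or G after them, on either strand, so that a match on the other strand reads as TATC between its flanking letters.
Gata1 (chrX:7967911-7968160, minus strand): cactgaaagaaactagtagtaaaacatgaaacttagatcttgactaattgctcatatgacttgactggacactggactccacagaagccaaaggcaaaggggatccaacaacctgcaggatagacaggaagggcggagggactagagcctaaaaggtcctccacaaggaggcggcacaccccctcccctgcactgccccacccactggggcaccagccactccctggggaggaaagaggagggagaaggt
Klf1 (chr8:84901732-84901981, plus strand): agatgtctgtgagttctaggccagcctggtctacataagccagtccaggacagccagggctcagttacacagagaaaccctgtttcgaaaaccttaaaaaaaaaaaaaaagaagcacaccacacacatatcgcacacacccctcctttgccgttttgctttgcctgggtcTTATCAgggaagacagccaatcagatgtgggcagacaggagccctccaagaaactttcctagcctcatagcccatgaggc
Tal1, first start site (chr4:115056176-115056425, plus strand): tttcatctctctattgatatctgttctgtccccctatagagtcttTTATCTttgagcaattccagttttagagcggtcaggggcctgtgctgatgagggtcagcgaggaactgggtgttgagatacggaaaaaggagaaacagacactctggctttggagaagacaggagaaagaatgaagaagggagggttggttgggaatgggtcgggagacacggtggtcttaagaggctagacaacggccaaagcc
Gfi1b (chr2:28621983-28622232, minus strand): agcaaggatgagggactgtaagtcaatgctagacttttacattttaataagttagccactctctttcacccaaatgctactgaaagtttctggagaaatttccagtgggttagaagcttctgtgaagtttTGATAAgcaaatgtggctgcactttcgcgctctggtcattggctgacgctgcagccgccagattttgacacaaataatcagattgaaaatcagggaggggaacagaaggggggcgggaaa

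The match began 80 bases before the Klf1 start, 205 before the first Tal1 start and 120 before the Gfi1b start. Of the 10 members' windows, which run on to 50 bases past the start, 3 held a GATA-type match, and 29.8% of 32851 RefSeq windows of the same length did, so the members' share was near that of all promoters. The KLF-type letters CCNCNCCC, where N is any base, were found on either strand in 8 of the 10 windows against 49.5% of all. Those of Gata1 began 71, 55 and 34 bases before its start. The 8 windows were 44.3% to 73.7% G or C, against a median of 52.7% over all windows, and the part of base composition in this count was not tested. The RUNX-type letters TGTGGT were in 2 of the 10 windows, those of Klf1 and of the first Runx1 start, against 16.8% of all. These matches are letters only, and no binding was measured.

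The libraries held 25583618 to 38728134 estimated counts each, with 10 counts or more for 13293 to 14754 genes. The targeted gene, Ifnar1, overlapped between the genotypes, with 60.9 ± 16.8 CPM (SD, n = 6) in the heterozygous and 69.0 ± 38.4 CPM (SD, n = 5) in the Ifnar1 -/- libraries. CPM are counts scaled to a common library total, here with TMM factors. Its counts cover the whole gene and cannot reveal a deleted part, so they are no check of the labels. Ebf1 split the libraries in a way the labels do not give: it was 530 to 744 CPM in Ifnar1 +/- libraries 3, 4 and 5 and Ifnar1 -/- libraries 3 and 5, and 0.0308 to 8.71 CPM in the other 6. These are called Ebf1-high and Ebf1-low, and each holds both genotypes. Since they were set by a measured value, they are described by ranges, with no test. Ifnar1 +/- library 6 and Ifnar1 -/- library 2 stood apart. The former had 49400 CPM of the globin gene Hbb-bs, against 322 to 5193 CPM in the others, and in the latter Prg2, a gene of eosinophil granules, was at 47610 CPM, against at most 1164 CPM in the others. Its TMM factor was 0.681, against 0.889 to 1.13 for the others.

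Gata1 and Gata2 ranged widely among the AMLs of both genotypes, and no difference between the genotypes was detected in either. Gata1, the GATA factor of differentiating erythroid cells and megakaryocytes, had 60.93, 149, 11.4, 9.95, 6.09 and 231 CPM across Ifnar1 +/- libraries 1 to 6, and 263, 198, 3.25, 165 and 60.88 CPM across Ifnar1 -/- libraries 1 to 5. It was low in Ifnar1 +/- libraries 3, 4 and 5 and Ifnar1 -/- library 3, in between in Ifnar1 +/- library 1 and Ifnar1 -/- library 5, and high in the rest, so the genotypes overlapped. The highest library had 80.9 times the CPM of the lowest. Its mean was 78.1 ± 92.7 CPM (SD, n = 6) for Ifnar1 +/- against 138 ± 105 CPM (SD, n = 5) for Ifnar1 -/-, a log2 fold change of 0.82 (SE 1.09, edgeR quasi-likelihood test, Benjamini-Hochberg adjusted p = 0.9998). The log2 fold change was 0.45 without Ifnar1 -/- library 1 and 1.54 without Ifnar1 +/- library 6. Gata1 (ENSMUSG00000031162) lies on chromosome X, from 7959260 to 7978071 on the minus strand of GRCm38.

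Gata2, the GATA factor of stem and progenitor cells, had 498, 354, 12.7, 12.6, 5.37 and 242 CPM across Ifnar1 +/- libraries 1 to 6, and 241, 91.7, 5.07, 338 and 73.0 CPM across Ifnar1 -/- libraries 1 to 5. Its lowest 4 libraries were those of Gata1, but its highest was Ifnar1 +/- library 1, where Gata1 was in between. Means were 187 ± 210 CPM (SD, n = 6) and 150 ± 136 CPM (SD, n = 5), and the log2 fold change of Ifnar1 -/- against Ifnar1 +/- was -0.32 with an SE of 1.22 (adjusted p = 0.9998, edgeR). The sign turned to 0.26 without Ifnar1 +/- library 1. Gata2 (ENSMUSG00000015053) lies on chromosome 6, from 88193891 to 88207032 on the plus strand.

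The balance of the GATA pair was not the same in all libraries. Per kb of exon, Gata1 was above Gata2 in 9 of 11 libraries and Gata2 above Gata1 in 2, Ifnar1 +/- libraries 1 and 2. Lengths are those of all annotated exons, so the order of close values depends on them. Gata2 and Gata1 were close in Ifnar1 +/- library 2, at 65.6 and 61.3 CPM per kb. They were also close in Ifnar1 -/- library 4, at 62.6 and 67.7 CPM per kb. Gata2 reached 3.69 times Gata1 per kb in Ifnar1 +/- library 1 (92.2 against 25.0 CPM per kb) and was 0.209 times it in Ifnar1 -/- library 2 (17.0 against 81.3 CPM per kb). The log2 ratio of Gata1 to Gata2, each as CPM + 1, is not per kb, so its sign does not show which gene was higher. Only its differences between libraries are read. It averaged -0.77 ± 1.20 (SD, n = 6) for Ifnar1 +/- against -0.11 ± 0.80 (SD, n = 5) for Ifnar1 -/-. The difference of 0.66 was within the spread between libraries (exact permutation test, two-sided, p = 0.377, where the design allows 0.00216 at the lowest). Ifnar1 +/- library 1 and Ifnar1 -/- library 2 also differed in Cpa3, a mast cell protease gene. It was highest in the former, at 3745 CPM, and was 33.9 CPM in the latter. In Ifnar1 +/- library 4 it was 551 CPM. The part of mast cells in the ratio was not tested.

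**Figure D1:**
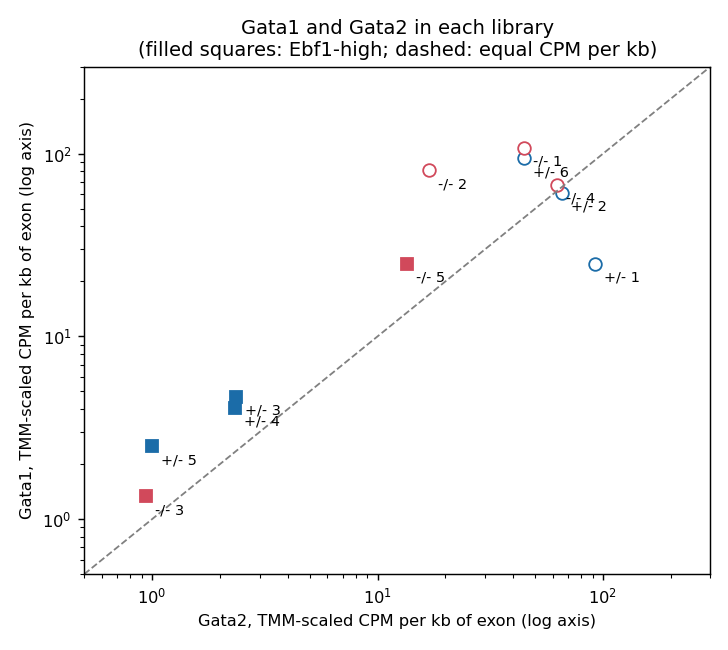
Gata1 (vertical axis) against Gata2 (horizontal axis) in TMM-scaled CPM per kb of exon, both on log axes, for each of the 11 libraries (blue, Ifnar1 +/-; red, Ifnar1 -/-; filled squares, Ebf1-high; open circles, Ebf1-low), with the line of equal levels dashed. Ifnar1 +/- libraries 1 and 2 lie below the line and the other 9 above it, and Ifnar1 -/- library 5 lies between the low and the high libraries.

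Of the GATA partners on DNA, Tal1 was high in the libraries where Gata2 was, and Lmo2 was highest in 1 library. Tal1 encodes the basic helix-loop-helix protein of the complex. It had 32.1, 4.64, 0.395, 1.09, 0.361 and 16.1 CPM across Ifnar1 +/- libraries 1 to 6, and 5.24, 0.464, 0.214, 11.6 and 1.76 CPM across Ifnar1 -/- libraries 1 to 5. Its 5 highest libraries were those of Gata2, with the same one on top, and Ifnar1 -/- library 2, with 198 CPM of Gata1, was among its lowest. The means were 9.10 ± 12.7 CPM (SD, n = 6) and 3.85 ± 4.77 CPM (SD, n = 5), with a log2 fold change of -1.24 (SE 1.32, edgeR adjusted p = 0.9998). Without Ifnar1 +/- library 1 it was -0.23, and without Ifnar1 -/- library 4 it was -2.24. Tal1 (ENSMUSG00000028717) lies on chromosome 4, from 115056426 to 115071755 on the plus strand.

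Lmo2 encodes the LIM-only protein that bridges TAL1 and GATA1. It had 7.56, 21.6, 14.7, 9.84, 14.0 and 87.0 CPM across Ifnar1 +/- libraries 1 to 6, and 24.0, 21.5, 3.47, 17.8 and 17.3 CPM across Ifnar1 -/- libraries 1 to 5. Ifnar1 +/- library 6, the library with the most globin transcript, was far above the other 10, which ran from 3.47 to 24.0 CPM. Its fitted log2 fold change was -0.62 with an SE of 0.69 (adjusted p = 0.9998, edgeR), and without Ifnar1 +/- library 6 it was 0.31. Lmo2 was 25.79 ± 30.4 CPM (SD, n = 6) for Ifnar1 +/- against 16.8 ± 7.95 CPM (SD, n = 5) for Ifnar1 -/-. Lmo2 (ENSMUSG00000032698) lies on chromosome 2, from 103957986 to 103981878 on the plus strand.

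Zfpm1, the gene of the GATA1 cofactor FOG1, was low throughout. It had 0.322, 1.53, 4.56, 1.82, 2.12 and 2.79 CPM across Ifnar1 +/- libraries 1 to 6, and 3.88, 0.721, 7.79, 1.58 and 2.59 CPM across Ifnar1 -/- libraries 1 to 5, from as few as 8 counts. Its highest libraries, Ifnar1 -/- library 3 and Ifnar1 +/- library 3, were both Ebf1-high and had little Gata1. Next came Ifnar1 -/- library 1, which was Ebf1-low and had the most Gata1, 263 CPM. Zfpm1 was lowest in Ifnar1 +/- library 1, which had the most Gata2. Its fitted log2 fold change was 0.60 with an SE of 0.68 (adjusted p = 0.9998, edgeR), and without Ifnar1 -/- library 3 it was -0.0098. Means were 2.19 ± 1.42 CPM (SD, n = 6) against 3.31 ± 2.77 CPM (SD, n = 5). Zfpm1 (ENSMUSG00000049577, chromosome 8, from 122282141 to 122337251 on the plus strand) overlaps the predicted gene Gm20388 on the same strand. The 2 share no exon bases, and Gm20388 had 0 to 298 counts.

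Runx1, a core factor of stem cells and megakaryocytes, moved over a narrower range. It had 120, 86.1, 31.5, 59.4, 36.1 and 39.8 CPM across Ifnar1 +/- libraries 1 to 6, and 79.1, 38.0, 44.4, 112 and 51.7 CPM across Ifnar1 -/- libraries 1 to 5. Ifnar1 +/- library 1 and Ifnar1 -/- library 4 were highest, and the genotypes overlapped almost wholly. Its fitted log2 fold change was 0.07 with an SE of 0.41 (adjusted p = 0.9998, edgeR). It was -0.22 without Ifnar1 -/- library 4. Means were 62.1 ± 34.7 CPM (SD, n = 6) against 65.1 ± 30.6 CPM (SD, n = 5). Runx1 (ENSMUSG00000022952, chromosome 16, from 92601466 to 92826149 on the minus strand) lies 1.09 Mb from Ifnar1. It shares 106 exon bases with the antisense gene Gm26626, which had at most 2 counts.

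The lineage-restricted partners followed Gata1 more closely in some libraries than in others. Klf1 encodes the erythroid Krüppel-like factor that acts on the globin genes. It had 8.20, 13.5, 2.05, 0.182, 0.940 and 33.9 CPM across Ifnar1 +/- libraries 1 to 6, and 35.9, 2.52, 1.22, 7.88 and 10.5 CPM across Ifnar1 -/- libraries 1 to 5. Ifnar1 -/- library 1 and Ifnar1 +/- library 6 were far above the rest, while Ifnar1 -/- library 2 was low. Its fitted log2 fold change was 0.25 with an SE of 1.16 (adjusted p = 0.9998, edgeR), and it was -0.82 without Ifnar1 -/- library 1. Means were 9.79 ± 12.9 CPM (SD, n = 6) against 11.6 ± 14.1 CPM (SD, n = 5). Klf1 (ENSMUSG00000054191) lies on chromosome 8, from 84901928 to 84905291 on the plus strand.

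Gfi1b encodes a transcriptional repressor that acts in the erythroid and megakaryocyte lineages. It had 47.0, 61.2, 27.6, 3.88, 13.3 and 154 CPM across Ifnar1 +/- libraries 1 to 6, and 124, 179, 10.6, 61.2 and 46.2 CPM across Ifnar1 -/- libraries 1 to 5. Ifnar1 -/- library 2 was highest and Ifnar1 +/- library 4 lowest. Means were 51.1 ± 54.6 CPM (SD, n = 6) and 84.1 ± 67.0 CPM (SD, n = 5), and the log2 fold change was 0.72 with an SE of 0.86 (adjusted p = 0.9998, edgeR). The log2 fold change was 0.22 without Ifnar1 -/- library 2 and 1.46 without Ifnar1 +/- library 6. Gfi1b (ENSMUSG00000026815) lies on chromosome 2, from 28609450 to 28621982 on the minus strand.

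Nfe2 encodes the basic leucine zipper subunit of NF-E2, which megakaryocytes need to release platelets. It had 144, 125, 11.4, 6.03, 8.48 and 209 CPM across Ifnar1 +/- libraries 1 to 6, and 154, 469, 10.6, 116 and 44.9 CPM across Ifnar1 -/- libraries 1 to 5. Ifnar1 -/- library 2 stood above all others, and the same 4 libraries as for Gata1 were lowest. Its fitted log2 fold change was 0.92 with an SE of 1.08 (adjusted p = 0.9998, edgeR), with means of 84.0 ± 87.1 CPM (SD, n = 6) and 159 ± 182 CPM (SD, n = 5). Without Ifnar1 -/- library 2 it was -0.056. Nfe2 (ENSMUSG00000058794) lies on chromosome 15, from 103248212 to 103258403 on the minus strand.

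Fli1, an ETS factor of stem cells and megakaryocytes that B-cell precursors also express, varied least. It had 116, 84.5, 126, 108, 112 and 62.8 CPM across Ifnar1 +/- libraries 1 to 6, and 77.4, 184, 94.9, 86.1 and 80.5 CPM across Ifnar1 -/- libraries 1 to 5. Its highest value was 2.93 times its lowest, and Ifnar1 -/- library 2 was above all others. Means were 102 ± 23.5 CPM (SD, n = 6) and 105 ± 44.8 CPM (SD, n = 5), with a log2 fold change of 0.04 (SE 0.27, edgeR adjusted p = 0.9998), and without Ifnar1 -/- library 2 it was -0.25. Fli1 (ENSMUSG00000016087) lies on chromosome 9, from 32422204 to 32542861 on the minus strand.

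**Figure D2:**
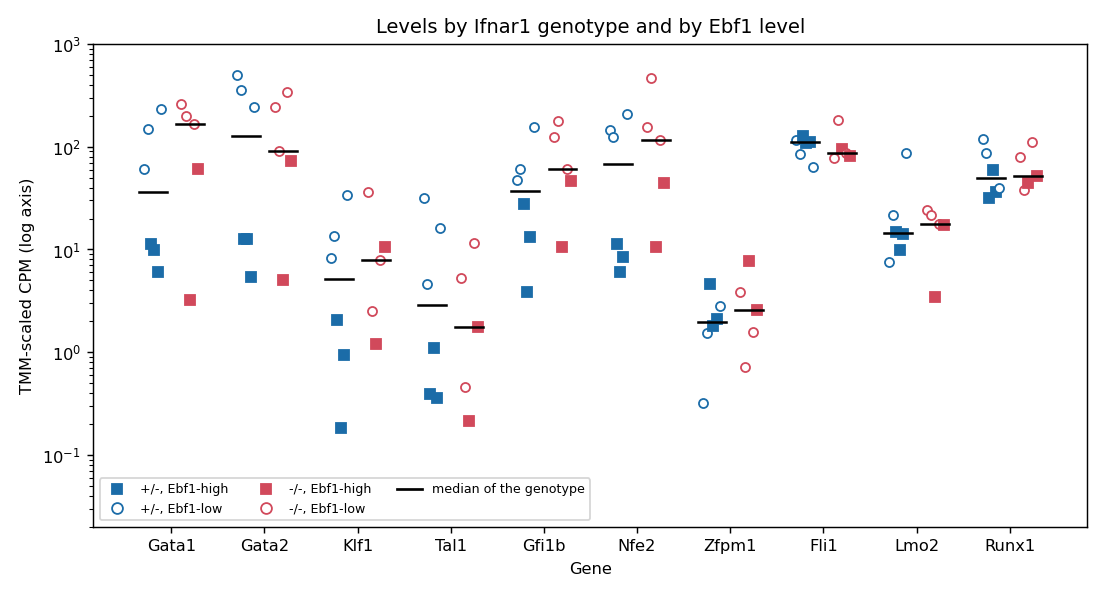
TMM-scaled CPM (vertical log axis) of the 10 genes (horizontal axis) in each library, blue for Ifnar1 +/- (n = 6) and red for Ifnar1 -/- (n = 5), with filled squares for Ebf1-high and open circles for Ebf1-low libraries and a bar at the median of each genotype. The genotypes overlap for every one of the 10, and Fli1 and Runx1 span the narrowest ranges.

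No difference between the genotypes was detected for any member. Over all genes, edgeR's quasi-likelihood test called 0 of 14521 at an adjusted p under 0.05 (0%), 289 had an unadjusted p under 0.05 (1.99%; 177 higher and 112 lower in Ifnar1 -/-), and DESeq2 called 3. None of the 10 members was among the 289. The values did not overlap between the genotypes for 18 genes (0.124%), and for 0 members. Of the members 7 had a fitted level above and 3 below that of Ifnar1 +/- libraries, with a median log2 fold change of 0.16, where 48.3% of all genes tested were above and the median was -0.01. The SEs of Gata1, Gata2, Klf1, Tal1 and Nfe2 exceeded 1 on the log2 scale, so changes of several fold in these genes could not have been told from the spread. That of Fli1 was 0.27.

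**Figure D3:**
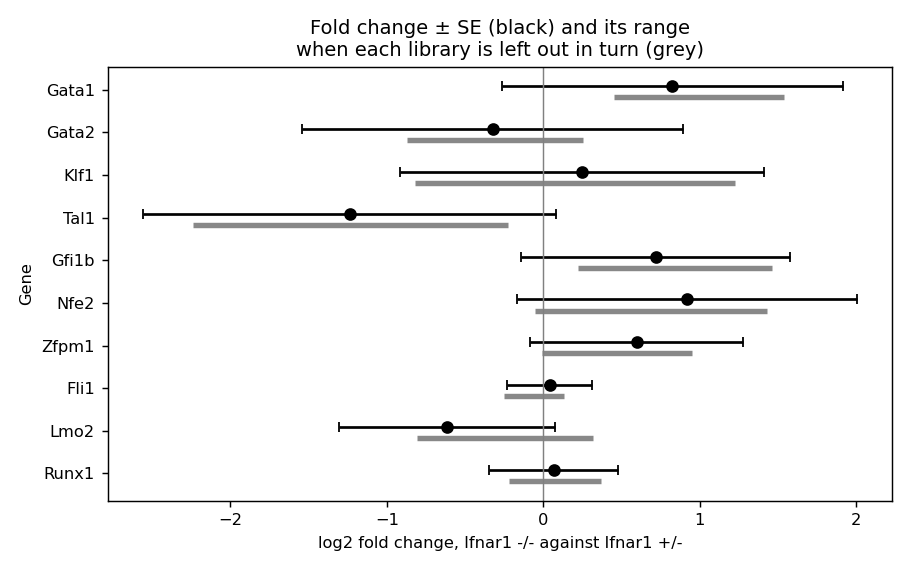
Log2 fold change of Ifnar1 -/- against Ifnar1 +/- libraries (horizontal axis) for the 10 genes (vertical axis), as black points with bars of 1 SE, and in grey the range of the value when each of the 11 libraries was left out in turn. The grey bars of Gata1, Tal1 and Gfi1b stay on one side of 0, and those of the other 7 cross it.

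Spread among libraries set the members apart from one another. The SD of log2(CPM + 1) over the 11 libraries had a median of 1.66 for the members and of 0.52 for all genes tested. It was 1 or more for 7 members, against 20.7% of all genes tested, and below 1 for Zfpm1, Fli1 and Runx1. Gata2 had the highest, at 2.46, and Fli1 the lowest, at 0.42. Fewer cells of a type and less RNA of a gene per cell cannot be told apart in such bulk samples.

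The levels were compared between genes per kb of exon. By median over the 11 libraries the order was Nfe2 with 38.9, Fli1 with 27.2, Gfi1b with 25.7, Gata1 with 25.0, Gata2 with 17.0, Lmo2 with 8.003, Klf1 with 5.15, Runx1 with 4.30, Zfpm1 with 0.605 and Tal1 with 0.401 CPM per kb. Neighbours in this order overlapped in range, except Runx1 and Zfpm1: Runx1, at 2.62 to 9.96 CPM per kb, was above Zfpm1, at 0.0918 to 2.22, in 11 of 11 libraries. The leading gene changed from library to library. Fli1 led in 4 libraries, Ifnar1 +/- 3, 4 and 5 and Ifnar1 -/- 3. Gata2 led in Ifnar1 +/- libraries 1 and 2, and Gata1 in Ifnar1 +/- library 6 and Ifnar1 -/- libraries 1 and 4. Nfe2 led in Ifnar1 -/- library 2, with 157 CPM per kb. In Ifnar1 -/- library 5, Gfi1b (25.2), Gata1 (25.0) and Fli1 (23.1 CPM per kb) were nearly level. Tal1 was last in 5 libraries, Zfpm1 in 5, and Klf1 in Ifnar1 +/- library 4.

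Ordered by Ebf1, the GATA factors and their closest followers were low where Ebf1 was high. Gata1, Gata2, Gfi1b and Nfe2 did not overlap between the 5 Ebf1-high and the 6 Ebf1-low libraries, and all 4 were lower in the Ebf1-high ones. None of the 10 was higher in all Ebf1-high libraries. Over all genes tested, 21.1% did not overlap, 9% being lower and 12.1% higher in every Ebf1-high library. Klf1, Tal1, Zfpm1, Fli1, Lmo2 and Runx1 overlapped.

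For Gata1 the Ebf1-high libraries ran from 3.25 to 60.88 CPM with a median of 9.95, and the Ebf1-low ones from 60.93 to 263 with a median of 182. Gata2 had 5.07 to 73.0 CPM (median 12.6) against 91.7 to 498 (median 290). Gfi1b had 3.88 to 46.2 CPM (median 13.3) against 47.0 to 179 (median 92.4). The gaps for Gata1 and Gfi1b were narrow, at 0.0505 and 0.78 CPM, and that for Gata2 was 18.7 CPM. Nfe2 was separated more widely, at 6.03 to 44.9 CPM (median 10.6) against 116 to 469 (median 149). When CPM was taken from the library total with no TMM factor, only Nfe2 of the 10 stayed apart, at up to 49.8 against at least 123 CPM, while 21.1% of all genes tested did so.

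**Figure D4:**
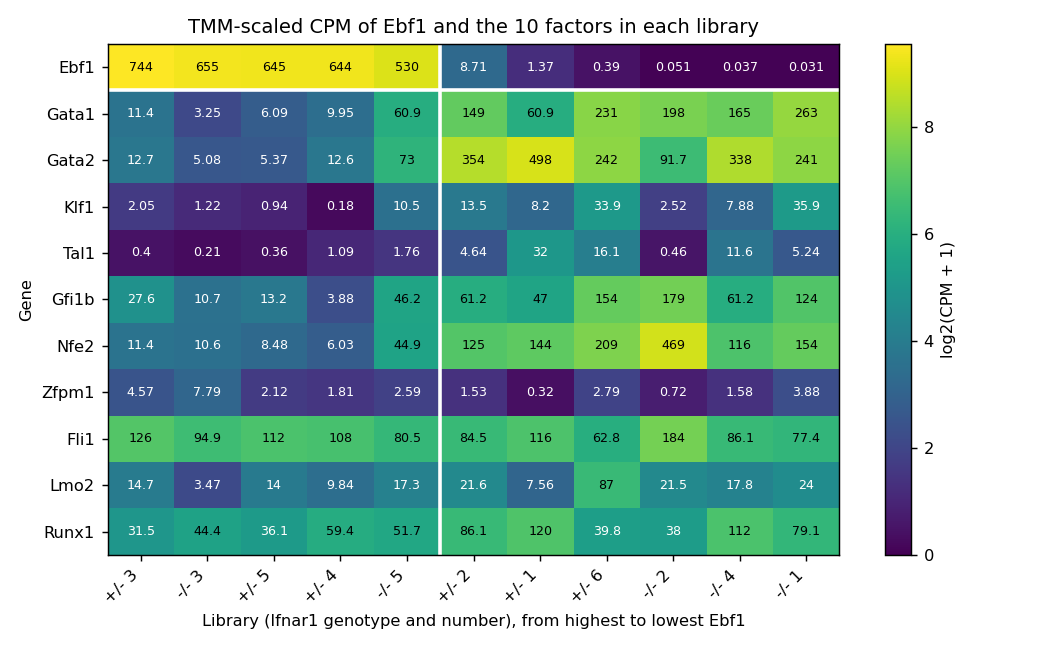
TMM-scaled CPM (numbers in the cells; colour gives log2(CPM + 1)) of Ebf1 and the 10 genes (rows) in the 11 libraries (columns), ordered from the highest to the lowest Ebf1. White lines part Ebf1 from the other rows and the 5 Ebf1-high from the 6 Ebf1-low libraries; Gata1, Gata2, Gfi1b and Nfe2 are lower left of the line, and Ifnar1 -/- library 5 holds their highest values there.

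These gaps depended on libraries of both sides. Without Ifnar1 +/- library 1, 5 members did not overlap, and likewise without Ifnar1 -/- library 2, both Ebf1-low. Of all genes tested, 22.2% and 27.1% then did not overlap. On the Ebf1-high side, the edge of each gap was Ifnar1 -/- library 5. It had the lowest Ebf1 of the Ebf1-high libraries, 530 CPM, and the highest level among them of 7 of the 10 members. Without it, Gata1 reached at most 11.4, Gata2 12.7, Nfe2 11.4 and Klf1 2.05 CPM in the other 4 Ebf1-high libraries, and Klf1 joined the 4 members that did not overlap, where 24.3% of all genes tested did not. This library had 10.5 CPM of Klf1 and 94.9 CPM of Itga2b, the megakaryocyte integrin gene, which was 8.58 to 57.8 CPM in those 4. It also had as much B-lineage transcript as they had, with 12930 summed CPM over 16 B-lineage genes against 10330 to 14020. The 23 erythroid genes summed to 3564 CPM in it, within the 1831 to 4382 CPM of the other 4 Ebf1-high libraries. Whether the same cells held the B-lineage and the other transcripts or 2 kinds of cells were mixed cannot be told apart in bulk RNA.

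Within the Ebf1-low libraries, Tal1 spanned the widest range, with its highest value 69.2 times its lowest. Klf1 spanned 14.2 times, Zfpm1 12.1 times and Lmo2 11.5 times, while Gata1 spanned 4.32 and Nfe2 4.04 times. Fli1 (80.5 to 126 CPM in Ebf1-high and 62.8 to 184 in Ebf1-low libraries) and Runx1 (31.5 to 59.4 and 38.0 to 120 CPM) overlapped broadly. Zfpm1 ran from 1.82 to 7.79 CPM in the Ebf1-high and from 0.322 to 3.88 CPM in the Ebf1-low libraries.

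Companion genes were taken as lists, and in no list did any gene pass between the genotypes. Of 26 nuclear partners (the LDB1 complex and its co-regulators) 25 were tested, 11 higher and 14 lower in Ifnar1 -/-, with a median log2 fold change of -0.05. Their summed CPM was 2380 to 2813 in the Ebf1-high and 2010 to 2448 in the Ebf1-low libraries. Rbbp4, a histone-binding subunit of the NuRD complex, was the most abundant, at 336 to 433 CPM in the Ebf1-low and 526 to 672 CPM in the Ebf1-high libraries. Its partners Mta2 and Hdac1 had 199.6 to 341 and 122 to 259.8 CPM, and Tcf4, which encodes an E protein, had 147 to 338 CPM. By Ebf1, 2 of the 25 were lower and 5 higher in every Ebf1-high library, against 9% and 12.1% of all genes tested.

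Of 26 paralogs of the members 20 were tested, 12 higher and 8 lower, with a median of 0.13 that turned to -0.36 without Ifnar1 -/- library 2. Ets1, an ETS factor of lymphocytes, was 302 to 539 CPM in the Ebf1-high and 33.6 to 195 CPM in the Ebf1-low libraries. Klf13 was 308 to 461 CPM in the Ebf1-high and 794 to 1962 CPM in the Ebf1-low libraries, and Klf6 was 42.9 to 83.8 against 219 to 868 CPM. Lyl1, the closest relative of Tal1, was 51.7 to 129 CPM and overlapped. In Ifnar1 -/- library 2, where Tal1 was 0.464 CPM, Lyl1 was 106 CPM. Over the list 4 of the 20 tested were lower and 1 higher in every Ebf1-high library, against 9% and 12.1% of all genes tested.

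The erythroid genes that GATA1 and KLF1 are known to act on moved with single libraries. Of 23 tested, 1 was higher and 22 lower in Ifnar1 -/-, with a median log2 fold change of -2.24, and 0 passed. Without Ifnar1 +/- library 6 the median was -0.14, with 10 of 22 higher. In that library the 23 genes summed to 141900 CPM, against 1831 to 16770 in the other 10. The globin genes Hba-a1, Hba-a2, Hbb-bs and Hbb-bt had 35520, 34270, 49400 and 13020 CPM there. Ifnar1 -/- library 1 had as much Klf1 (35.9 against 33.9 CPM) and more Gata1 (263 against 231 CPM), but 14980 summed CPM of erythroid genes and 4237 CPM of Hbb-bs. Lmo2 also differed between these 2 libraries, at 24.0 in the former and 87.0 CPM in Ifnar1 +/- library 6. By Ebf1, 5 of the 23 erythroid genes were lower and 0 higher in every Ebf1-high library, against 9% and 12.1% of all genes tested.

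Megakaryocyte genes, taken as a sum, divided the libraries by Ebf1. Of 18 tested genes 16 were higher and 2 lower in Ifnar1 -/-, with a median of 0.48 and 0 passing. Without Ifnar1 -/- library 2 there were 12 higher and 6 lower, and without Ifnar1 +/- library 6 the median was 0.78. All 20 listed genes summed to 65.4 to 374 CPM in the Ebf1-high and 1257 to 3709 CPM in the Ebf1-low libraries. Singly, 4 of the 18 were lower and 0 higher in every Ebf1-high library, against 9% and 12.1% of all genes tested. Ifnar1 +/- library 1 (3709 CPM) and Ifnar1 -/- library 4 (2845 CPM) were highest, and these 2 also led in Runx1 and in Itga2b (2488 and 1191 CPM). Itgb3, Pf4 and Plek, which encode an integrin chain, platelet factor 4 and pleckstrin, reached 303, 578 and 698 CPM. The platelet receptor gene Gp1bb was at 0 in 7 libraries and at most 0.771 CPM in the others, while Gp9, from the same receptor complex, had 0.393 to 29.1 CPM, highest in Ifnar1 -/- libraries 1 and 4. The platelet chemokine gene Ppbp had 0.940 to 21.6 CPM, highest in Ifnar1 +/- library 1.

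Genes of eosinophils, mast cells and basophils, the other lineages in which Gata1 and Gata2 act, were spread differently. Of 20 tested, 10 were higher and 10 lower, with a median of 0.33 that turned to -1.21 without Ifnar1 -/- library 2. That library had 70050 summed CPM, against 258 to 13010 in the other 10, with 47610 CPM of Prg2 and 5851 CPM of Alox15. Of the other eosinophil markers, Epx was highest there, at 1674 CPM, but Il5ra was not. Il5ra was 52.3 CPM in Ifnar1 -/- library 2 and 60.2 CPM in Ifnar1 -/- library 3, which was Ebf1-high. The neutrophil genes Ngp and S100a8 (24010 and 1725 CPM) and the monocyte genes Ly6c2, Itgam and Csf1r (1721, 929 and 274 CPM) were also highest there. Other neutrophil genes were not: Mpo and Elane had 20.9 and 1.44 CPM there. Mpo was highest in Ifnar1 +/- library 4 (53.5 CPM) and Elane in Ifnar1 +/- library 6 (33.5 CPM). Ifnar1 -/- library 2 had 198 CPM of Gata1, 91.7 of Gata2, 2.52 of Klf1 and 0.464 of Tal1, and the highest Gfi1b, Nfe2 and Fli1 of all. In Ifnar1 +/- library 1 the mast cell genes Cpa3 and Hdc had 3745 and 4664 CPM beside the highest Gata2. The other mast cell and basophil markers were highest elsewhere. Ms4a2 had 501 CPM in Ifnar1 +/- library 1 and 517 CPM in Ifnar1 -/- library 4. Mcpt8 had 52.0 CPM in Ifnar1 +/- library 1 and 139.5 CPM in Ifnar1 +/- library 2. In Ifnar1 +/- library 6, Prg2 was 0.324 CPM with 231 CPM of Gata1. By Ebf1, 1 of the 20 was lower in every Ebf1-high library, against 9% of all genes tested. The part of these cell types in the members' levels was not tested.

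**Figure D5:**
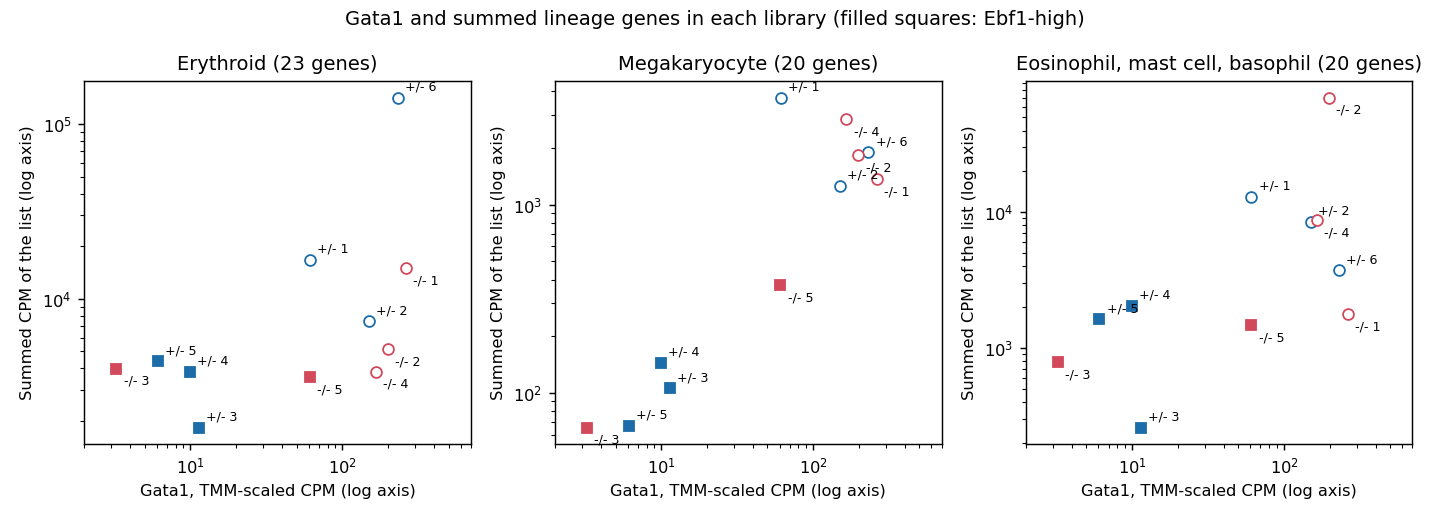
Summed CPM of erythroid (23 genes), megakaryocyte (20 genes) and eosinophil, mast cell and basophil genes (20 genes) on the vertical log axes against Gata1 CPM on the horizontal log axis, for each library (blue, Ifnar1 +/-; red, Ifnar1 -/-; filled squares, Ebf1-high). Libraries with 165 to 263 CPM of Gata1 differ in which list is highest among them: erythroid in Ifnar1 +/- 6, megakaryocyte in Ifnar1 -/- 4, which is also second in the third list with 8719 CPM, and eosinophil, mast cell and basophil in Ifnar1 -/- 2.

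Of the 15 B-lineage genes tested, 14 were higher in every Ebf1-high library, against 12.1% of all genes tested. This is a description only, since Ebf1 set the split. By genotype, 2 were higher and 13 lower in Ifnar1 -/- with a median of -0.52. That median was -0.19 without Ifnar1 -/- library 2 and -0.78 without Ifnar1 +/- library 6. Cd79a, Ighm, Igll1 and Vpreb3 had at least 1992, 2069, 1055 and 948 CPM in every Ebf1-high library. Of 16 tested factors of other blood lineages, 10 were higher and 6 lower, with a median of 0.24 that turned to -0.27 without Ifnar1 -/- library 2. Among them Spi1, which encodes PU.1, a factor known to oppose GATA1, was 507 CPM in Ifnar1 -/- library 2 and 26.6 to 89.3 CPM in the others. High Spi1 and 198 CPM of Gata1 thus stood in one library. Irf8 was 155 to 262 CPM in the Ebf1-high and 0.662 to 7.36 CPM in the Ebf1-low libraries. Ikzf1 and Myb, with 83.4 to 241 and 22.5 to 198 CPM, overlapped.

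For each member with an SD of 1 or more, the 3 genes most like it were found among 12086 genes, by the root mean square difference of log2(CPM + 1) centred per gene over the 11 libraries. All libraries share depth, scaling and the split by Ebf1, so likeness is a description. Gata1 was most like Pheta2, Ndrg2 and Micall2, at 0.44, 0.44 and 0.58. Pheta2 had 34.1 CPM in Ifnar1 +/- library 1 and 31.1 CPM in Ifnar1 -/- library 5, in between as Gata1 was. The nearest member was Nfe2, at 0.78. Gata2 was most like Tent5a (0.35), Serpina3g (0.40) and Tbxas1 (0.45).

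Klf1 was most like Samd14 (0.43), Hemgn (0.44) and Epor (0.46). Epor, the erythropoietin receptor gene, had 48.0 CPM in Ifnar1 +/- library 6 and 24.2 CPM in Ifnar1 -/- library 1, its highest values. Tal1 was most like Tmppe, Nr1h4 and Tmem158, which like it were highest in Ifnar1 +/- library 1. Gfi1b was most like Tspo2, Nqo1 and Svip. Among the 3 genes most like Nfe2 were F2rl2 (0.41) and Tbc1d2b (0.48), both highest in Ifnar1 -/- library 2. Lmo2 was most like Stom, Reep6 and Prkab1, each highest in Ifnar1 +/- library 6.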

How the data were processed

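The libraries were bulk RNA-seq of 6 Ifnar1 +/- and 5 Ifnar1 -/- AML samples, grouped by the labelled genotype. Per the labels' protocols, a Qiagen micro kit served for extraction and a Clontech kit for the libraries. Bcl2fastq and DRAGEN appear in the submitters' processing notes. The build, annotation, strand setting and role of each tool are not given in the sources read for this work. The authors deposited estimated counts per gene, unscaled, of which 10% to 11.3% per library were not whole. The table held 55774 rows, of which 287 identical copies were dropped, and 55141 of 55487 genes had a symbol in the reference table; rows without one held at most 0.0219% of counts.

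Counts were rounded, filtered with filterByExpr (14521 genes) and scaled with TMM factors. The genotypes were compared with edgeR 4.0.16 (glmQLFit, robust, and glmQLFTest, two-sided, Benjamini-Hochberg, threshold 0.05) in R 4.3.3, and SE is the absolute log2 fold change over the square root of F. CPM per kb uses the union of exons in GENCODE M21 (GRCm38). The Gata1 to Gata2 ratio was tested over all 462 assignments, with a pseudocount of 1 CPM. Ebf1-high and Ebf1-low libraries lie on either side of the widest gap in log2 Ebf1 CPM. The fit was tested on simulated data. The biological coefficient of variation was 0.782, which limits precision more than depth.

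The members, the 7 companion lists and the tests were chosen with earlier results of these data known. Named genes are the members, the 4 most abundant genes of each list, the 3 most alike genes per member (1 of them is not reported here), and genes overlapping a member; markers of cell types were listed too, and other comparisons of single libraries were picked after the values were seen. Of the lists, 3 genes are in 2 lists and 1 gene was not matched. Alternatives were DESeq2 1.42.0, voom from limma 3.58.1 with library quality weights, other scalings, filters and pseudocounts, a block for the replicate number, leaving out each library, and Ebf1 level as a covariate. List medians without Ifnar1 +/- library 6, Ifnar1 -/- library 2 or both were added after seeing the data.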

Additional observations from a re-analysis of the deposited data

Results flagged for a closer look

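Over the 10 members and the Gata1 to Gata2 ratio, 22 groups of libraries were checked for a value far from the others, where chance marks about 1 group in 20. Fli1 was 184 CPM in Ifnar1 -/- library 2, far above the 77.4 to 94.9 CPM of the other Ifnar1 -/- libraries. Lmo2 was 3.47 CPM in Ifnar1 -/- library 3, far below the 17.3 to 24.0 CPM of the others.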

How the results depend on the processing

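No member passed between the genotypes under any of 20 other settings: of 198 recomputed fold changes 174 kept their sign and 24 turned, and the lowest adjusted p was 0.508. DESeq2 called 3 genes, none of them a member, and the other settings called 0. Taking CPM from the library total left 1 member apart by Ebf1, upper-quartile factors 3 and DESeq2 factors 4, and leaving out single libraries 4 to 5. With limma voom and its quality weights for libraries, the log2 fold change turned sign for Gata2 (2.61), Tal1 (1.56), Fli1 (-0.33) and Lmo2 (0.18), and it was 2.67 for Gata1, 3.19 for Klf1, 1.999 for Gfi1b, 2.45 for Nfe2 and 0.52 for Runx1. With Ebf1 as a covariate Runx1 was -0.072. With Ifnar1 +/- library 6 and Ifnar1 -/- library 2 both left out, Fli1 was -0.36 and Lmo2 0.23, and the erythroid median was -0.03. Leaving out single libraries gave 0.45 to 1.54 for Gata1, -0.87 to 0.26 for Gata2, -2.24 to -0.23 for Tal1, 0.22 to 1.46 for Gfi1b, -0.82 to 1.22 for Klf1, -0.056 to 1.43 for Nfe2, -0.0098 to 0.95 for Zfpm1, -0.25 to 0.13 for Fli1, -0.81 to 0.31 for Lmo2 and -0.22 to 0.37 for Runx1. The difference in the Gata1 to Gata2 ratio kept its sign, at 0.21 to 0.88, when single libraries were left out. Tal1 and Zfpm1 were not tested under the filter of 5 CPM. The cause of these changes was not tested.

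The replicate numbers are shared by the genotypes, but same-numbered libraries did not deviate together in every pair (r of 0.41, 0.15, 0.58, -0.55 and 0.52 for numbers 1 to 5). Of Ifnar1 +/- libraries 1 to 5, only number 3 correlated best with the Ifnar1 -/- library of its own number. With the replicate block 0 genes were called, and the log2 fold change turned sign for Gata2 (0.47), Fli1 (-0.15) and Lmo2 (0.20). It was 1.76 for Gata1, 1.64 for Klf1, 1.51 for Gfi1b, 1.67 for Nfe2 and -0.34 for Tal1.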
